A study of Homo sapiens with 9 samples.

Results

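The 1099 regions described here were open-chromatin regions at the ends of protein-coding genes that were listed in control SKNMC cells and in neither of the cell populations with a hairpin against CHD4. They were chosen from the deposited region lists themselves. Regions wider than 20000 bp or with a negative value in the second of the authors' scores were dropped, and the 3 lists were merged wherever regions shared at least 1 bp. A merged region was kept when it held a shScramble region, held no region of shCHD4#1 or shCHD4#2, and overlapped a window of 1000 bp on either side of a start or end coordinate of a GRCh38 protein-coding gene. These 1099 were part of 130417 merged regions in all, of 21516 merged regions at gene ends and of 13773 regions lost with both hairpins. Each of them consisted of exactly 1 shScramble region.

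SKNMC is an established Ewing sarcoma cell line, and all material came from this 1 line. The 3 groups of 3 biological replicates were assayed by ATAC-seq, which inserts sequencing adapters into accessible DNA: shScramble, labelled wildtype, and shCHD4#1 and shCHD4#2, both labelled CHD4 knockdown. All 9 samples, controls included, had received doxycycline at 100 ng/ml to switch on the hairpin and were labelled 48 h. The lists do not show how far CHD4 itself was reduced by either hairpin.

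CHD4 is the ATPase of the NuRD complex, which couples nucleosome remodelling to histone deacetylation and acts at both enhancers and promoters. The start of an active gene usually lies in a nucleosome-depleted stretch, in most cases within a CpG island, where transcription factors and RNA polymerase II assemble. The far end of a gene, where transcription terminates, is less regularly accessible, although open sites there can belong to enhancers or to the promoter of a neighbouring gene.

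Of the lost regions, 96 promoter windows of 88 genes lay wholly inside one. These windows, taken from the RefSeq table for GRCh38.p14, run from 250 bases before to 50 bases after a transcript start. The 250 bases before the start are shown for the promoters among the lost regions with the best authors' p-values, 5′ to 3′ on the strand of the gene, with every CpG dinucleotide (CG) in capitals. As the choice of members required, the DNA printed here was listed as open in the control and lay in no region of either hairpin list. These promoters do not show the whole range on this list. Each was CpG-rich by the definition given below, which only 45 of the 96 windows met.
CNIH4, chr1:224356629-224356878, plus strand: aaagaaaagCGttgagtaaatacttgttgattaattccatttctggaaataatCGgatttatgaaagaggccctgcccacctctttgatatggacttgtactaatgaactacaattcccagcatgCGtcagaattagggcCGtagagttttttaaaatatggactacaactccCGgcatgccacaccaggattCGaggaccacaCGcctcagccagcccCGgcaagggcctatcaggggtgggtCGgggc
DHX37, chr12:124989132-124989381, minus strand: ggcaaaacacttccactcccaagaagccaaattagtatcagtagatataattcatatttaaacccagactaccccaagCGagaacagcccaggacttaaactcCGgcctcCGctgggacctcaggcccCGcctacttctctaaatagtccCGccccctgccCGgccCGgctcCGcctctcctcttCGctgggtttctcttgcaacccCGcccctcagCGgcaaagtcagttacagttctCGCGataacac
RFC2, chr7:74254400-74254649, minus strand: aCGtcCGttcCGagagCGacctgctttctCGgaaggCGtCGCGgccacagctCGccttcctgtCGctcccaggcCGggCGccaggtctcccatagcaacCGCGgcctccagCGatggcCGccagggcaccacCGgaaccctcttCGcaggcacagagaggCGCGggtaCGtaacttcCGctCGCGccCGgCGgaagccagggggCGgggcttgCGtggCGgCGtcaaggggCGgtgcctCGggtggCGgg
MAP4K3, chr2:39437286-39437535, minus strand: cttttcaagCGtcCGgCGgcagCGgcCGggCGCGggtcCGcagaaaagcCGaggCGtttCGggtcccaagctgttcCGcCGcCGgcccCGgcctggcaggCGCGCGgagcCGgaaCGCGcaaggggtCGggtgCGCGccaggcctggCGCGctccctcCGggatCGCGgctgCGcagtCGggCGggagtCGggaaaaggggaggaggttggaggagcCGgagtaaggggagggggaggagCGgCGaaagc
RABIF, chr1:202889150-202889399, minus strand: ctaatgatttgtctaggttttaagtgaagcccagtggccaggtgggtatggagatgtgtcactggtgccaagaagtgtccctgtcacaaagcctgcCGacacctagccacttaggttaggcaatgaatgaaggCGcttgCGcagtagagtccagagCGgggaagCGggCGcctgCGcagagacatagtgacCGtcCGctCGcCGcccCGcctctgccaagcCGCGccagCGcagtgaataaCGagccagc
The CNIH4 promoter held 9 CpGs in these 250 bases, that of DHX37 13 and that of RABIF 16, whereas RFC2 had 33 and MAP4K3 36. For CNIH4 the window belongs to 1 of its RefSeq transcript starts, which lies downstream of the start coordinate of the gene.

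The next 3 promoters are shown because they belong to genes of the compiled lists described further on, a BAF complex gene, a DNA replication gene and a ribosomal protein gene.
BCL11A, chr2:60553925-60554174, minus strand: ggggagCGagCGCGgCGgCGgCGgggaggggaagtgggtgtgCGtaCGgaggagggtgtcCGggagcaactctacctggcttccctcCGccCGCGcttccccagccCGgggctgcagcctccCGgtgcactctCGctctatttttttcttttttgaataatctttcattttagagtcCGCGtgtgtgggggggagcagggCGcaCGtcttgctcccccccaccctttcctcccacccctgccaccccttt
RFC1, chr4:39366363-39366612, minus strand: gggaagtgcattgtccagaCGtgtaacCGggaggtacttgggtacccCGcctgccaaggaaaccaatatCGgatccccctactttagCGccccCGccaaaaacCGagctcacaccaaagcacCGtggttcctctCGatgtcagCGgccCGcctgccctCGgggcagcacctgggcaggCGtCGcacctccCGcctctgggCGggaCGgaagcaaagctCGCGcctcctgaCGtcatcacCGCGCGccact
RPS4X, chrX:72277249-72277498, minus strand: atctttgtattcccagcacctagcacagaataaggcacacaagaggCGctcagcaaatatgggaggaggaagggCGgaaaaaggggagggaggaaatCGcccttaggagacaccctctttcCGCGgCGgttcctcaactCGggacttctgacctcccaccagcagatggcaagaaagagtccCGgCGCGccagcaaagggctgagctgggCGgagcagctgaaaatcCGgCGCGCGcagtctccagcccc
BCL11A had 19 CpGs, RFC1 23 and RPS4X 15, and each of these promoters was CpG-rich by the same definition. The promoter of FGF7, chosen after its values were seen, is shown as a CpG-poor counterpart with 2 CpGs, and of the members over a known start it lay farthest from any hairpin region.
FGF7, chr15:49422992-49423241, plus strand: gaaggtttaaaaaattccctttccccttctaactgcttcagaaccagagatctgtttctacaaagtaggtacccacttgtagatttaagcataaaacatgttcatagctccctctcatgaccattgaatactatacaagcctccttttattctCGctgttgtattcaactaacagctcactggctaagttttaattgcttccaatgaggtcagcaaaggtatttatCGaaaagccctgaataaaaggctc

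As a group, the 96 promoter windows inside lost regions had fewer CpGs than windows inside the shScramble regions of gene-end regions in all 3 lists. The latter, 6352 in number, are called retained windows, although the window itself need not lie in a hairpin region. The median window of 300 bases held 14 CpGs and 58.7% GC inside lost regions, against 23 CpGs and 62.3% GC in the retained windows. By the usual definition of CpG-rich, a GC content of at least 50% and a ratio of observed to expected CpGs of at least 0.6, 45 of the 96 windows qualified (46.9%, 95% Wilson interval 37.2 to 56.8%). The share was 78.7% of the retained windows and 59.9% of all 22011 promoter windows of 15711 genes. Read the other way, 45 of 5652 CpG-rich windows inside a shScramble region lay inside a lost one (0.796%), and 51 of 2022 windows that were not CpG-rich did so (2.52%). The windows were not matched by the rank of their region in the shScramble list. By the authors' p, gene-end regions of all 3 lists ranked better than lost ones, as described below. Whether CpG content went with that rank or with loss was not tested. Wilson intervals here and below cover counting error only, and neighbouring regions and windows of 1 gene are not independent.

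Short motifs were counted in the same windows on both strands, as letters and not as binding sites. GGGCGG, the GC box that SP1-type factors read, occurred in 43.8% of the windows inside lost regions, 66.8% of the retained windows and 56.3% of all windows. CCAAT, the letters read by NF-Y, occurred in 35.4%, 43.9% and 34.7% in the same order. Its interval inside lost regions, 26.6 to 45.4%, includes both other shares. TATAAA, a core of the TATA box, was in 12.5%, 5.92% and 9.49%. Inside lost regions that was 12 of the 96 windows, and the interval of 7.30 to 20.6% includes the share of all windows. CACGTG, the E-box read by MYC and USF, was in 4.17%, 10.3% and 8.32%, and TGACTCA, the AP-1 element, in 5.21%, 2.58% and 4.02%. Inside lost regions these were only 4 and 5 of the 96 windows, with intervals of 1.63 to 10.2% and 2.24 to 11.6%. Both intervals include the share of all windows. CCGGAAGT, a high-affinity ETS motif that contains GGAA, was in 9.38%, 10.4% and 5.31%. This was 9 of the 96 windows inside lost regions, with an interval of 5.01 to 16.9% that includes both other shares. GGAA itself occurred in 97.9%, 97.0% and 95.1% of the windows. A run of 3 GGAA copies, a short version of the repeats bound by the Ewing fusion EWSR1::FLI1, was in 0 of the 96 windows, in 0.0787% of the retained windows and in 0.0818% of all. The NRF1 palindrome was in 2.08%, only 2 of the 96 windows, in 2.31% of the retained windows and in 1.49% of all.

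The lists held 85359 shScramble, 122456 shCHD4#1 and 82824 shCHD4#2 regions after the filters. They hold no read counts, so the depth of each library is unknown, and with 1 list per group no difference between groups could be tested. Ends of 13 of the 15 Ewing sarcoma marker genes were covered by a shScramble region, CD99 and PAX7 being the exceptions. The same held for 4 of 6 fibroblast, 4 of 5 haematopoietic, 3 of 4 epithelial and 1 of 4 endothelial marker genes, against 62.8% of all genes, so cover of gene ends alone did not set Ewing markers apart from all other types. Among these markers only PTPRC and PECAM1 had a lost gene-end region.

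Gene-end regions were listed again under the hairpins more often than regions elsewhere. Of 14839 gene-end merged regions with a shScramble region, 1099 were lost with both hairpins (7.41%, 7.0 to 7.84%). Away from gene ends the count was 12674 of 57424 (22.1%, 21.7 to 22.4%), and over the whole series 19.1%. Since the absence of hairpin regions chose the members, these shares are a description of the lists. Set against 1 hairpin list at a time, an alternative added after the data were seen, 2394 gene-end regions (15.2%) were absent from the shCHD4#1 list and 2792 (18.3%) from the shCHD4#2 list. With each list shortened to its best 40000 regions, so that the lists were equally long, 1137 gene-end regions (13.1%) were lost with both.

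The lost gene-end regions stood low in the shScramble list. Their widths ran from 260 to 11599 bp with quartiles of 910, 1290 and 1835 bp. The median width was 1440 bp in the whole shScramble list and 1370 bp for lost regions away from gene ends. The 11945 gene-end regions of all 3 lists had a median of 3050 bp, but these are unions of regions of several lists, which merging widens. The place of a region in the shScramble list was taken by the authors' p-value, best first, as a percentage of the list. The quartiles of the lost gene-end regions were at 46.6, 64.0 and 79.4%, and the best of them stood at 3.26%. For the gene-end regions of all 3 lists the quartiles were at 8.36, 27.1 and 55.8%, and for the lost regions away from gene ends at 54.6, 69.8 and 81.6%. An authors' p of at most 0.05 belonged to 28 of the lost gene-end regions (2.55%), to 3834 of the gene-end regions of all 3 lists (32.1%) and to 38 of the lost regions elsewhere (0.300%). None of the lost gene-end regions had an authors' q of at most 0.05, which 834 of the retained ones had.

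Gene-end and other regions can be compared at like places in the list, each merged region being placed by its best shScramble region. Among those placed in the first 10%, 0.433% at gene ends and 0.423% elsewhere were lost. From 40 to 50% of the list the shares were 9.05% and 19.9%, and from 80 to 90% they were 24.6% and 45.3%. In the last 10% both shares dropped, to 5.91% and 24.4%. The last places are shared by regions tied at an authors' p of 0.951, among them 58 of the lost gene-end regions. Before the last 10%, place and loss thus largely moved together at gene ends as well as away from them. In each 10% of the list beyond the first 20% the gene-end share was the lower.

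**Figure D1:**
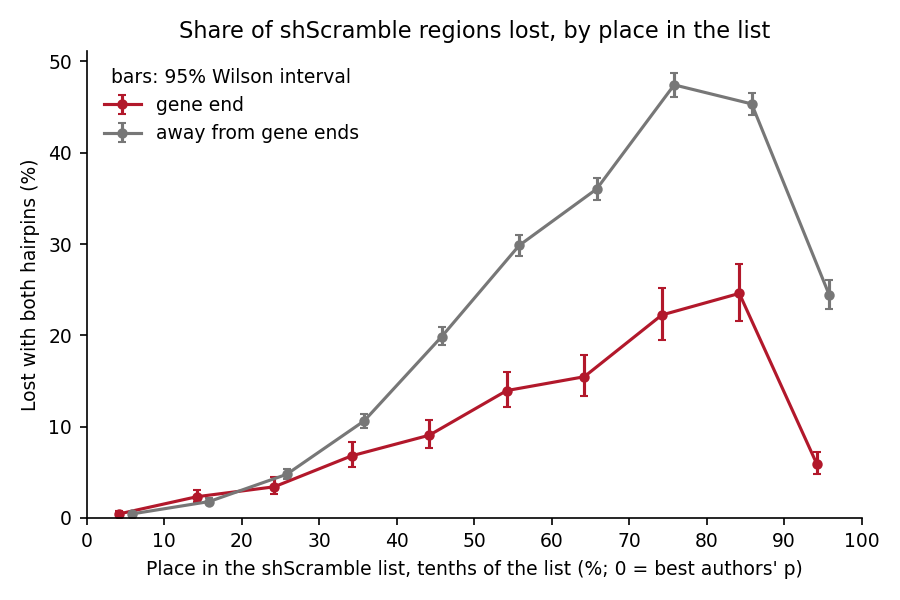
The share of shScramble regions lost with both hairpins (y axis, %) is plotted for each 10% of the shScramble list by the authors' p (x axis, %, best at 0), for regions at gene ends (red) and away from them (grey), with 95% Wilson intervals. Merged regions are placed by their best shScramble region. The gene-end share climbs from 0.433% in the first 10% to 24.6% between 80 and 90% and drops to 5.91% in the last 10%. It stays below the grey points beyond the first 20%.

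Most lost gene-end regions had a hairpin region close by. The number of bases to the nearest hairpin region had quartiles of 80, 330 and 1960, counting 0 where regions touch. For 321 members (29.2%) it was at most 100 bp, for 436 (39.7%) more than 100 and at most 1000 bp and for 342 (31.1%, 28.5 to 33.9%) over 1000 bp. The nearest shCHD4#1 region was a median of 540 bp away and the nearest shCHD4#2 region 660 bp. Both lists had a region within 1000 bp of 548 members (49.9%), only shCHD4#1 beside 132 and only shCHD4#2 beside 77. The shCHD4#1 list is also the longest of the 3. For lost regions away from gene ends the median distance to a hairpin region was 2170 bp, and 58.6% had none within 1000 bp. The nearest hairpin region most often belonged to a merged region of all 3 lists, for 613 members (55.8%). When regions within 500 bp of each other were merged, 380 gene-end regions (2.94%) were still lost with both hairpins.

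**Figure D2:**
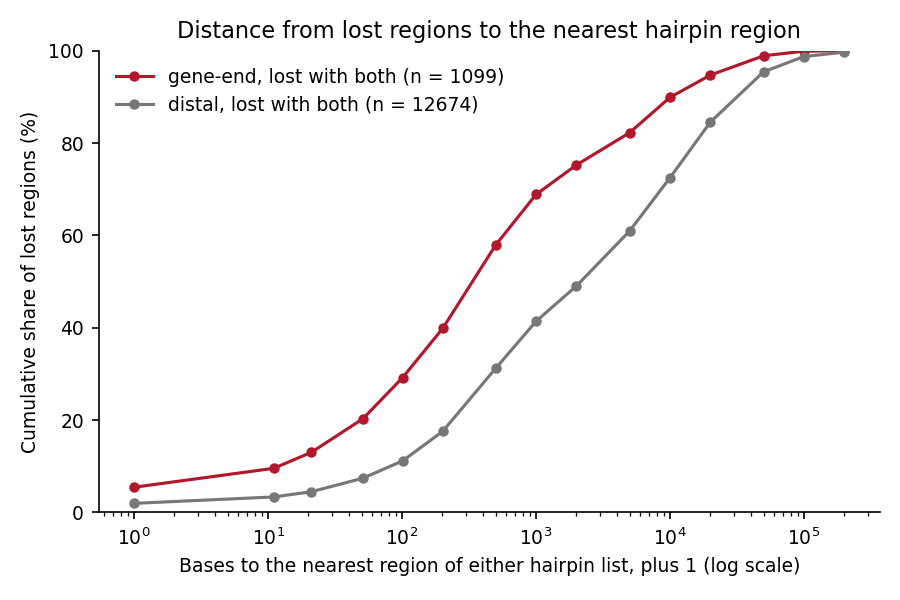
The cumulative share of lost regions (y axis, %) is plotted against the number of bases to the nearest region of either hairpin list plus 1 (x axis, log scale), for the 1099 gene-end regions (red) and 12674 regions elsewhere (grey). The red curve passes 29.2% at 100 bases and 68.9% at 1000 bases, and lies above the grey curve there.

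Members close to a hairpin region and members far from one differed in position and place. Those within 100 bp lay at a gene start in 207 of 268 cases with known strand (77.2%) and had a median place of 55.2%. Those more than 100 and at most 1000 bp away lay at a start in 210 of 348 (60.3%) with a median place of 58.0%. Those farther than 1000 bp lay at a start in 91 of 272 (33.5%) with a median place of 75.9%. The 28 members with an authors' p of at most 0.05 were divided 21, 7 and 0 over the 3 distance classes, so none of these 28 stood more than 1000 bp from every hairpin region.

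Part of the members had a close neighbour with the same second score in the control list. Another shScramble region lay within 100 bp of 341 members (31.0%), and in 337 of these cases it carried the same second score. The share with such a near region was 28.5% for gene-end regions of all 3 lists, which can hold several shScramble regions. It was 23.7% for lost regions elsewhere, where the score was the same in 98.9% of these cases. In the whole shScramble list this value was shared by 98.2% of neighbouring regions within 100 bp and by 2.19% of those more than 1000 bp apart. For 255 of the 337 (75.7%) the neighbour with the same score overlapped a hairpin region, and for 209 (62.0%) it was part of a region of all 3 lists. At EED, which encodes the core subunit of Polycomb repressive complex 2, the lost region of 1850 bp ended 80 bp from its neighbour. It lay 0 bp from a shCHD4#1 region and 70 bp from a shCHD4#2 region. Whether the cutting of longer stretches into separate regions decided which regions became members was not tested. In an alternative added after the data were seen, regions of equal score within 100 bp, here called pieces, were joined before merging. Then 817 lost gene-end regions remained and the lost share was 5.86%.

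The member with the best place was at the start of CNIH4, a cargo receptor for export from the endoplasmic reticulum. It spanned 1400 bp, from -1012 to 387 bp around the start (chr1:224355791-224357190), with an authors' p of 0.00201. The next shCHD4#1 region began 458 bp downstream of the start, and the nearest shCHD4#2 region at 2078 bp. The control cells also had a weaker region from 638 to 3367 bp, at a place of 65.6%. At CNIH4, then, the hairpin lists kept open DNA downstream of the start, and the stretch over the start itself was listed in the control alone.

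At DHX37, a DEAH-box RNA helicase of ribosome assembly, the member reached from -969 to 200 bp around the start, at a place of 5.34%. The nearest shCHD4#1 region lay 180 bp and the nearest shCHD4#2 region 4050 bp away. CTTNBP2NL, a partner of the STRIPAK phosphatase complex, had a member from -706 to 863 bp at 5.36%, with hairpin regions 40 and 3930 bp away in the same order. In both genes shCHD4#1 had a region in the start window and shCHD4#2 had none within 1000 bp of the member. The shCHD4#1 region at DHX37 overlapped no shScramble region. ARMH3, a Golgi protein, differed: its member from -537 to 22 bp had regions of both hairpins just downstream, beginning at 83 bp for shCHD4#1 and at 63 bp for shCHD4#2.

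TBCA, a cofactor of tubulin folding, had a member that stopped 12 bp before the start. A shCHD4#2 region lay 10 bp from this member and the nearest shCHD4#1 region lay 550 bp away. AURKB, the mitotic kinase of the chromosomal passenger complex, had a member from -1085 to 144 bp at a place of 6.14%. A shCHD4#1 region began at 165 bp and the nearest shCHD4#2 region at 1135 bp, just outside the start window. RFC2, a subunit of the clamp loader of DNA replication, had a member of 440 bp, with hairpin regions 100 and 500 bp away.

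Of the 12 members with the best places, the remaining ones lay at UGT1A5, a glucuronosyltransferase gene, and at VPS18, a subunit of vesicle tethering complexes, then at EED, at MAP4K3, a kinase that signals nutrient supply, and between RABIF and KLHL12. UGT1A5 had hairpin regions 640 and 610 bp away, VPS18 20 and 60 bp, and MAP4K3 110 and 80 bp. The member at the start of RABIF, a Rab chaperone, also lay in the window of the far end of KLHL12, an adaptor of the CUL3 ubiquitin ligase. Its nearest shCHD4#1 region was 22260 bp away and its nearest shCHD4#2 region 370 bp. All of these 12 lay at a gene start except that of VPS18, whose strand the reference table lacks.

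**Figure D3:**
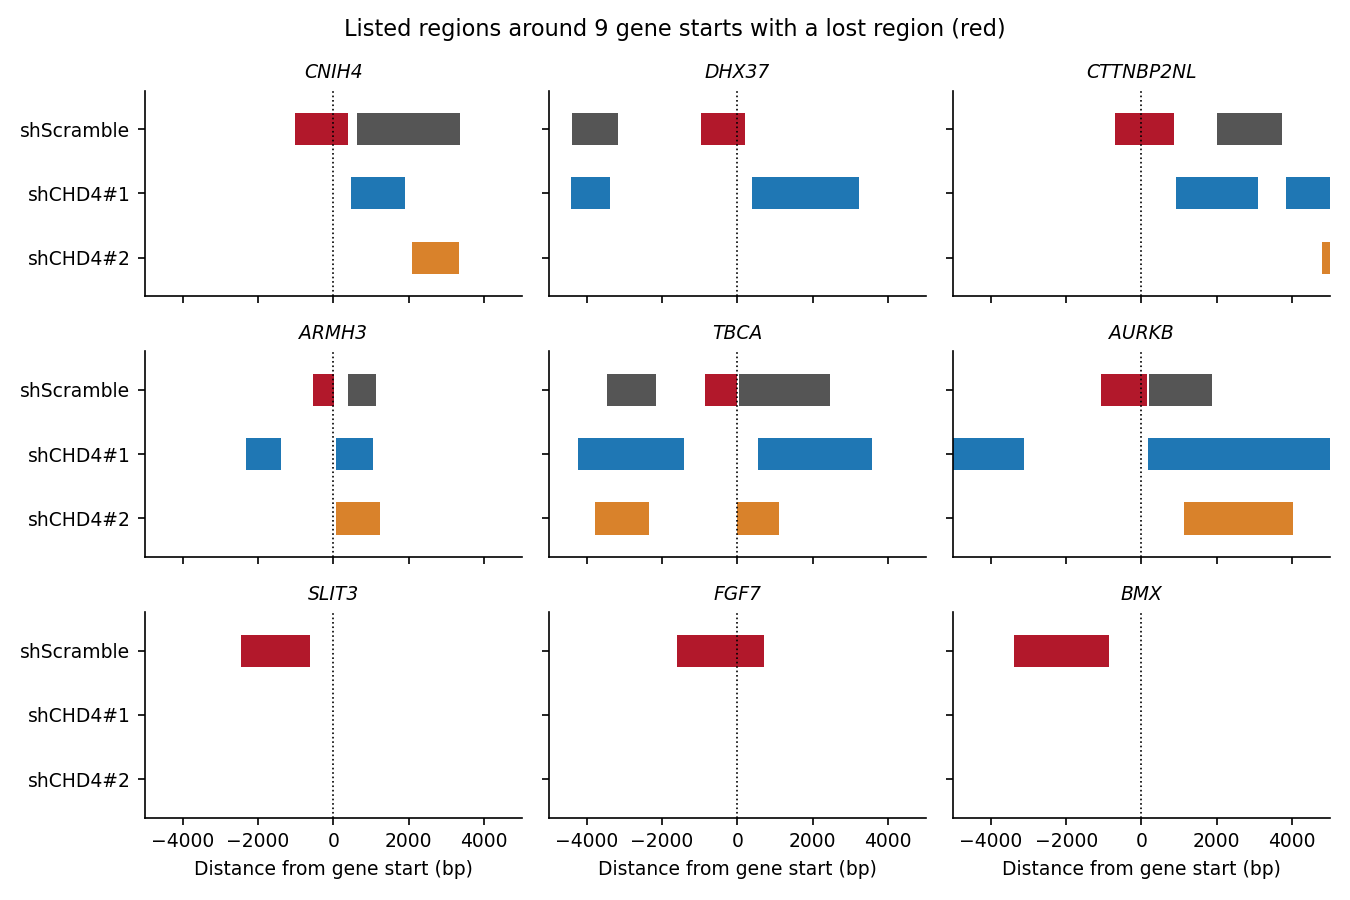
Listed regions are drawn as bars to scale within 5000 bp of 9 gene starts (x axis, distance from the start in bp, positive into the gene), 1 row per list, with the lost region in red and other regions in the colour of their list. At CNIH4, DHX37, CTTNBP2NL, ARMH3, TBCA and AURKB hairpin regions lie beside the red bar, whereas SLIT3, FGF7 and BMX have none in the drawn range.

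Where the reference gave a strand, gene starts and far ends could be told apart, which was the case for 888 members. A start window held 508 of them (57.2%, 53.9 to 60.4%), and 380 (42.8%) lay at a far end only. The share at a start was 84.1% of 9993 gene-end regions of all 3 lists and 81.2% of 1922 gene-end regions gained with both hairpins. Windows of more than 1 gene were overlapped by 120 members (10.9%) and by 23.1% of the regions of all 3 lists. The members at starts had a median width of 1190 bp, a median place of 59.7% and a median distance of 180 bp to a hairpin region. Those at far ends had 1520 bp, 68.6% and 865 bp.

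Members at starts were mostly beside the start base and not over it. Among 541 pairs of a member and a start window, 128 covered the start base (23.7%). The share was 78.4% of the pairs formed by regions of all 3 lists, which are unions that merging widens. Counted by window, the start base lay in the member in 24.2% of 530 start windows. It lay in a shScramble region in 72.2% of 8754 start windows with a region of all 3 lists. The middle of the member lay downstream of the start in 277 pairs and upstream in 264, so neither side prevailed by count. At far ends 45.5% of 442 pairs covered the end base.

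A member in a window seldom meant that a start was left without any listed region. Of 9293 start windows with a shScramble region, 530 held a member (5.7%). In 339 of these (64.0%) both hairpin lists had another region in the window, in 42 only shCHD4#1 did, in 37 only shCHD4#2, and in 112 (21.1%) neither did. Of 3340 far-end windows with a shScramble region, 424 held a member (12.7%). Both hairpin lists had a region in 71 of these (16.7%) and neither list in 283 (66.7%). Over all windows with a shScramble region, 176 start windows (1.89%, 1.64 to 2.19%) and 460 far-end windows (13.8%, 12.6 to 15.0%) held no region of either hairpin. Read at single bases, 469 of 6716 listed start bases (6.98%) and 512 of 1907 listed far-end bases (26.8%) were in no hairpin region.

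**Figure D4:**
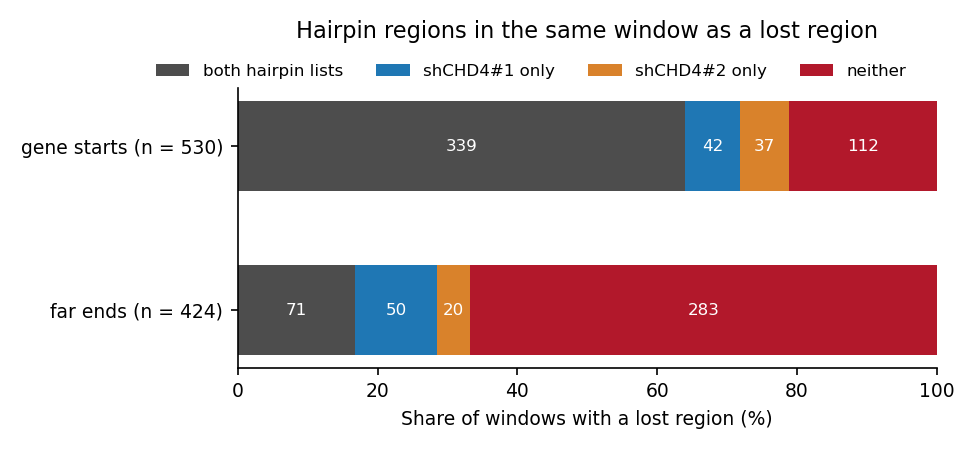
Stacked bars give the share (x axis, %) of the 530 start windows and 424 far-end windows with a lost region that also held a region of both hairpin lists, of shCHD4#1 only, of shCHD4#2 only or of neither, with the number of windows printed in each segment. Both lists had a region in 339 of the start windows, and neither had one in 283 of the far-end windows.

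By gene, 1165 of the 12550 genes with a shScramble region at an end had a member there (9.28%). Regions of both hairpins were at an end of 836 of them (71.8%), of shCHD4#1 only at 86, of shCHD4#2 only at 60 and of neither at 183, or 1.46% of the 12550. This last number was 467 with lists of the best 40000 regions, 661 without the shCHD4#1 list and 450 without the shCHD4#2 list. In these 183 genes the member lay at the start in 87, at the far end only in 54 and at an end of unknown strand in 42. The median length of genes with a member was 31150 bp, of the 183 genes without any hairpin region at an end 37558 bp, and of all 12550 genes 27435.5 bp.

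Several of the 183 genes are named here, chosen after their values were seen for their good places in the shScramble list. PLCXD3, a phospholipase-like gene of the nervous system, had a member of 1180 bp over its start at a place of 16.2%, with the nearest shCHD4#1 region 61960 bp and the nearest shCHD4#2 region 113590 bp away. NR3C2, the mineralocorticoid receptor gene, had a member at 31.0% whose nearest hairpin regions were only 70 and 260 bp away but outside the windows of both gene ends. CCL5, a chemokine gene, had one at 35.2% with hairpin regions 2020 and 4220 bp away, and RGS1, a regulator of G-protein signalling, one at 32.2% with 28680 and 33460 bp. TRAF3IP2, an adaptor of interleukin-17 signalling, stood at 37.1% with hairpin regions 10 and 0 bp away. The label of a gene without a hairpin region at its ends thus covered both isolated regions and regions that touch a hairpin region.

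The 5 members farthest from any hairpin region stood between 48.1% and 87.6% of the shScramble list, on both sides of the members' median of 64.0%. The farthest lay upstream of SLIT3, a secreted axon guidance ligand of ROBO receptors, from -2441 to -612 bp, 122600 bp from shCHD4#1 and 123120 bp from shCHD4#2 (place 67.7%). That of FGF7, a fibroblast-derived growth factor for epithelium, covered the start from -1611 to 708 bp with hairpin regions 97230 and 97840 bp away (place 48.1%). BMX, a TEC-family tyrosine kinase, followed with 90990 and 146700 bp (place 84.9%). FANCL, the ubiquitin ligase of the Fanconi anaemia core complex, and PNLIPRP3, a pancreatic lipase relative, had theirs at the far end, 109230 and 81560 bp away for FANCL and 78260 and 130240 bp for PNLIPRP3. Their places were 57.6% and 87.6%.

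The widest member, of 11599 bp, lay at the very end of chromosome 3 at LOC124905351, an uncharacterised locus, with an authors' p at the tie of 0.951. SQLE, squalene epoxidase of cholesterol synthesis, had one of 8880 bp and TRPM3, a heat-sensing cation channel, one of 7440 bp. HMGN1, a nucleosome-binding protein, had one of 7040 bp, and a member of 6890 bp was shared by the zinc finger genes ZNF226 and ZNF227. The one at TRPM3 touched a shCHD4#1 region (0 bp) and lay 20 bp from a shCHD4#2 region.

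More than 1 member was found at the ends of 54 genes. SLC29A2, a nucleoside transporter, and KIAA0930 had 3 each, and CAAP1, MKNK1, PDCD2, PPP6C, ABCA2 and FUT7 had 2 each. Those at CAAP1 touched each other and had the same second score, 820, with places of 11.7% and 44.1%. ABCA2 and FUT7 are neighbours and shared both of their members, which lay 50 bp apart with the same second score, 380. In MKNK1, a MAP kinase-interacting kinase, each end of the gene had its own. At PPP6C, a protein phosphatase subunit, they likewise lay at opposite ends.

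The window of 1000 bp fixed the list sharply. The members just inside it overlapped it by 1 bp at SCNN1B and by 2 bp at NKD2 and LHFPL2. The lost regions just outside it had 0 bases between them and the edge at RAP1A and XRRA1 and 3 bases at WSB2.

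Genes of 19 compiled lists were counted beside the 9.28% of all genes with a shScramble region at an end. In the cell cycle and replication list 10 of 68 genes had a member (14.7%, 8.19 to 25%), and 9 of the 10 had regions of both hairpins at an end. Besides AURKB and RFC2 these were CCNE1, CDKN1B, CDC25A, CDC25C, MCM6, GINS2, RFC1 and MKI67. CCNE1, cyclin E, had its member at the start at a place of 77.3%, 70 and 40 bp from hairpin regions. RFC1, the large clamp loader subunit, had one at 29.2%, 790 and 30 bp away. MKI67, the proliferation marker, had one at the tied last place, 780 and 840 bp away.

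Among chromatin complexes, none of the 12 NuRD genes with a shScramble region at an end had one. The interval of this share reaches 24.2% and includes the 9.28% of all genes. The Polycomb list had 4 of 27 (14.8%): EED, RING1, the catalytic subunit of a histone H2A ubiquitin ligase, the chromobox protein gene CBX8, and RYBP, a partner of RING1. All 4 had regions of both hairpins at an end. Of the BAF genes, 3 of 28 had one (10.7%): SMARCD2, ACTB and BCL11A. The one at BCL11A, a zinc finger repressor, covered the start at a place of 60.0%, 1900 bp from shCHD4#1 and 60 bp from shCHD4#2, and no hairpin region lay in the window of either end.

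The lists tied to the tumour type lay on both sides of the share of all genes. Of 30 genes activated by EWSR1::FLI1, AURKB and CCK had a member (6.67%), and of 19 repressed or mesenchymal genes PHLDA1 and SPRY2 had one (10.5%). CCK, a neuropeptide gene of the fusion-activated list, had its member at the start at 61.7%, 1730 and 1030 bp from hairpin regions. PHLDA1 and SPRY2 were both at the tied last place and within 750 bp of regions of both hairpins.

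Among 63 DNA damage genes, 5 had a member: XRCC6, FANCG, FANCL, MDC1 and REV3L. The p53 target list had 3 of 21, namely FAS, the sestrin genes SESN1 and SESN2. FAS, the death receptor, was the single one of 26 apoptosis genes. Its member began 341 bp downstream of the start at a place of 74.8%, 10680 and 10540 bp from hairpin regions, and neither hairpin had a region at its ends.

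Genes used in all cells had counts near or below those of all genes. They were 6 of 76 for ribosomal proteins (7.89%), 3 of 51 for splicing, 2 of 46 for the ubiquitin and proteasome list and 2 of 48 for the respiratory chain. RPS4X had a member over its start at 8.88%, 40 and 390 bp from hairpin regions, and RPL32 one at 14.9%, 160 and 1260 bp away. The other 4 ribosomal members, at RPL5, RPL23, RPL27 and RPS10, stood between 84.4% and 88.2% of the list. All 6 genes had regions of both hairpins at an end.

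Of the developmental transcription factors, 5 of 24 had a member (20.8%, 9.24 to 40.5%). PAX6, of eye and neural development, and LHX9, a LIM homeobox gene, had theirs at the far end at 83.2% and 90.9%. Neither gene had a hairpin region at an end. SIX2 and HAND2 had regions of both hairpins at an end. In the neuronal list SHANK1 and SHANK2, scaffolds of the postsynaptic density, were 2 of 23, and of 15 muscle genes none had one. The interferon list had 2 of 28 (IFNAR1 and OAS2), the haematopoietic list 1 of 16 (PTPRC) and the endothelial list 2 of 7 (PECAM1 and EGFL7). The lists are small, and the interval of each share printed here includes the 9.28% of all genes.

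Across chromosomes the lost share of gene-end regions ranged from 5.22% on chromosome 20, 25 of 479, to 10.3% on chromosome 5, 73 of 712 (8.23 to 12.7%). Chromosome 7 had 39 of 741 (5.26%, 3.87 to 7.11%). Chromosome 18 followed chromosome 5 with 10.1% and chromosome 22 with 9.75%. The intervals of chromosomes 5 and 7 did not overlap, and those of all other chromosomes included the 7.41% of all.

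**Figure D5:**
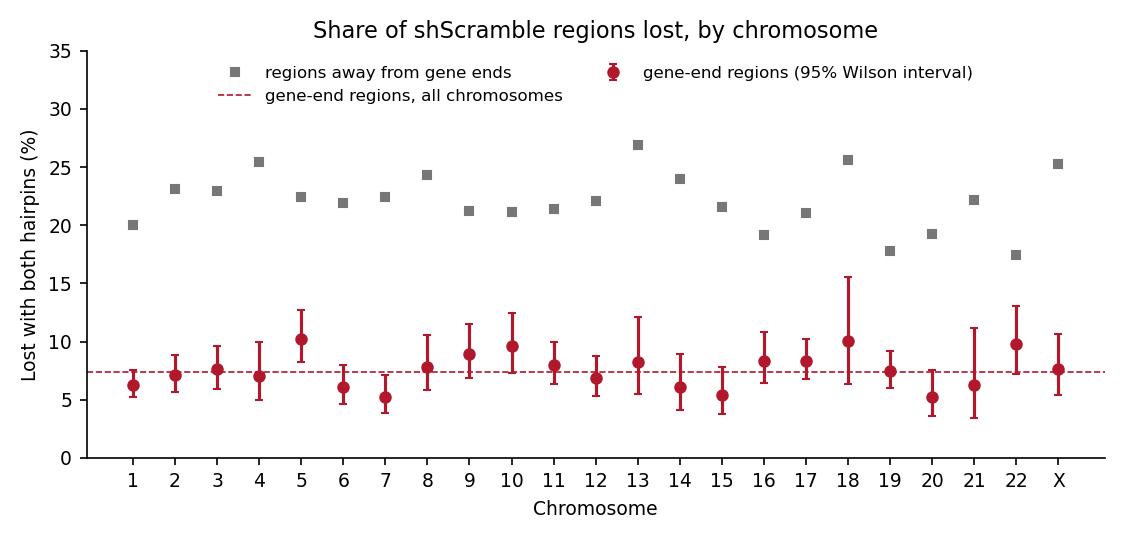
The share of shScramble regions lost with both hairpins (y axis, %) is plotted by chromosome (x axis) for gene-end regions (red circles, 95% Wilson intervals, dashed line at 7.41% for all chromosomes) and for regions away from gene ends (grey squares). The gene-end share runs from 5.22% on chromosome 20 to 10.3% on chromosome 5 and lies below the grey square on each chromosome.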

How the data were processed

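ATAC-seq of 9 SKNMC samples was deposited as 3 region lists, 1 per group. Per the labels' protocols, each assay held 100000 SKNMC cells and a spike-in of 100 Drosophila S2 cells. Per the submitters' processing notes, the tools were BWA, deepTools 3.2.1, FastQC 0.11.7, SAMtools 1.9 and Trimmomatic 0.36, with GRCh38 and dm6. The peak caller, like any use of the spike-in, is not given in the sources used here. The lists are filed under replicate 1 of each group and were taken, by inference, to combine its replicates. Each region has 2 scores from the authors, of unstated unit, and a p-value and q-value from the authors, by which the deposited lists are sorted. These values only ranked or filtered regions within a list, and tied p-values shared their mean place.

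Chromosomes 1 to 22 and X were used. The filters dropped 416 of 85775, 413 of 122869 and 417 of 83241 regions of shScramble, shCHD4#1 and shCHD4#2. Gene ends came from the RefSeq table for 19970 protein-coding genes, and the strand of 15812 of them from the promoter table. Merging, gene ends and distances were computed in Python 3.11.15 with pandas 2.3.3 and numpy 2.4.6 and tested on simulated regions. Depth is unknown, so the precision of a call cannot be given.

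The members, gene lists and added alternatives were chosen with earlier results of these data known. Members named are the 12 with the best place, up to 3 genes per list (no hairpin region first, then best place), the 5 farthest from a hairpin region, the 5 widest, up to 8 genes with the most members, 3 on each side of the window edge, and up to 8 with a covered promoter for sequences. Other names were chosen after their values were seen. Not every gene counted in a list is named.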

Additional observations from a re-analysis of the deposited data

How the results depend on the processing

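With 1 list per group no replicate could be left out in turn. No paired analysis was possible because each group has 1 list, taken to combine its replicates. Values are given against 8 results: 1099 regions, 7.41% of gene-end shScramble regions lost, 7.98% of all lost regions at a gene end, 183 genes without a hairpin region, 57.2% at a start, a median place of 64.0%, a median width of 1290 bp and a median distance of 330 bp. Leaving out the filters moved none of them beyond its counting interval or, for counts, by 1.5 times. Joining pieces of equal score and leaving out a hairpin list were chosen after seeing the data.

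The number of regions was 569 with windows of 250 bp, 2786 with 5 kb, 2907 where shScramble regions under 50% covered by each hairpin list counted as lost, 380 after merging regions within 500 bp, 28 under a p limit of 0.05, 2792 without the shCHD4#1 list and 2394 without the shCHD4#2 list. The lost share in the same order was 4.79, 12.3, 16.8, 2.94, 0.707, 18.3 and 15.2%, and it was 8.12% for regions up to 5 kb, 6.34% counting single shScramble regions, 13.1% and 12% for the best 40000 and 80000 regions of each list and 5.86% with pieces joined. The share of lost regions at a gene end was 4.13, 20.2, 12.6, 5.06, 42.4, 9.12 and 12.3% in the first order, 10.8% for the best 40000 and 7.36% with pieces joined. Genes without a hairpin region numbered 1 under the p limit, 467 and 334 for the best 40000 and 80000, and 661 and 450 without the shCHD4#1 and shCHD4#2 list. The share at a start was 46.3, 60.8, 69.0, 37.7, 90.9, 61.9 and 70.5% in the first order and 66.2% for the best 40000. The median place was 66.4% with 5 kb, 72.4% after merging within 500 bp, 9.53% with the p limit, 33.7% for the best 40000, and 60.2% and 57.8% without the shCHD4#1 and shCHD4#2 list. The median width was 1410 bp with 250 bp windows, 1470 bp with under 50% cover, 1710 bp after merging within 500 bp, 1020 bp with the p limit, 1200 bp for the best 40000, 1430 bp with pieces joined and 1180 bp without the shCHD4#2 list. The median distance was 540 bp with 5 kb, 0 with under 50% cover, 4420 bp after merging within 500 bp, 55 bp with the p limit, 1640 and 430 bp for the best 40000 and 80000, 480 bp with pieces joined and 560 bp without the shCHD4#1 list. By construction the windows, the merging distance, the p limit and the list length change how many regions can be members; for the other changes the cause was not tested. Unknown depth limits each of these values.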

Other observations

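Genes sharing a symbol prefix were counted in the same way, for prefixes with at least 80 genes with a shScramble region at an end. Of 364 ZNF genes, mostly zinc finger factors, 40 had a lost gene-end region (11.0%), and 33 of the 40 had regions of both hairpins at an end. Of 241 SLC genes, which encode solute carriers, 30 had one (12.4%) and 20 of these had regions of both hairpins at an end. The shares were 7.88% of 165 TMEM genes, 11.1% of 90 CCDC genes, 7.61% of 92 FAM genes and 9.90% of 202 LOC genes, beside 9.28% of all genes. The Wilson interval of each of these shares includes 9.28% (8.17 to 14.6% for ZNF and 8.86 to 17.2% for SLC), and the prefixes were not tested.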
